A study of Mus musculus with 2 samples.

Results

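The genes described are 33 genes of fatty acid oxidation and of the response to the nuclear receptor PPARα. They were chosen by gene symbol, and all 33 had 1 row each among the 36808 genes of the deposited table. RNA was sequenced from primary hepatocytes, the parenchymal cells of the liver, which were isolated from C57Bl6 mice and cultured in William E medium with serum, insulin and dexamethasone. One culture was treated with GW3965 at 1 µM, a small molecule that activates the liver X receptors (LXR), and the other with its solvent DMSO. With a single library on each side, differences have no replicate check and the conditions could not be tested. The table calls its second library GL, which is read here as GW3965, the sole treated sample in the labels, a reading that is not certain.

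Fatty acids are oxidised mainly in mitochondria. Long-chain acyl groups enter as carnitine esters, and a cycle of dehydrogenation, hydration, a second dehydrogenation and thiolysis then shortens the chain, with electrons passing through the electron transfer flavoprotein to the respiratory chain. Very long chains are first shortened in peroxisomes, and microsomal cytochrome P450 enzymes of the Cyp4a family oxidise the far end of the chain. In liver many of these genes are targets of PPARα, which is activated by fatty acids and binds DNA as a dimer with RXR, the partner it shares with LXR.

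The sites bound by PPARα and RXR are direct repeats of AGGTCA spaced by 1 base. RefSeq promoter windows (GRCm38.p6) were matched by symbol for 25 of the 33 genes, and the 250 bases before each start were searched on both strands. Cyp4a10, Cyp4a14, Vnn1, Cpt1b, Crat, Decr1, Hsd17b4 and Acaa2 had no window and were not searched. The full repeat AGGTCANAGGTCA was found in 0 of the 25 windows and in 0.0335% of all 32851 windows. The relaxed repeat AGGNCANAGGNCA, in which the fourth base of each repeat unit is free, was found in 1 of the 25, that of Fabp1, and in 0.338% of all windows. A single repeat unit AGGTCA was found in 5 of the 25 (Acadm, Acadvl, Cd36, Cpt1a and Fabp1) and in 14.0% of all windows. Of the windows below, that of Fabp1 (chr6:71199629-71199878, plus strand) is shown for the relaxed repeat, in capitals, which holds 1 of its repeat units. Those of Acadm (chr3:153944644-153944893, minus strand), which differed little between the libraries, and of Cpt1a (chr19:3323051-3323300, plus strand), which had the lowest ratio among the mitochondrial genes, have the repeat unit in capitals. In all 3 the capitals read in the reverse direction, as TGACCT. A match describes the letters and is not evidence of binding.
Fabp1: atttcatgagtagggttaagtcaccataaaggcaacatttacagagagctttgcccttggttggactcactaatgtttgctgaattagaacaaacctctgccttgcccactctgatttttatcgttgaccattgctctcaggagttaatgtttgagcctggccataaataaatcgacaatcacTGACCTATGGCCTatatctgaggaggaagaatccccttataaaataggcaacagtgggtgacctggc
Acadm: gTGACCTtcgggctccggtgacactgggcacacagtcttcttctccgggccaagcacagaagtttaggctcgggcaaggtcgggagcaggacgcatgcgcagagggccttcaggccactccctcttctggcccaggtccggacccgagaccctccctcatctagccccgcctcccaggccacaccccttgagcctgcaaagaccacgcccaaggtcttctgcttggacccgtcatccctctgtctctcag
Cpt1a: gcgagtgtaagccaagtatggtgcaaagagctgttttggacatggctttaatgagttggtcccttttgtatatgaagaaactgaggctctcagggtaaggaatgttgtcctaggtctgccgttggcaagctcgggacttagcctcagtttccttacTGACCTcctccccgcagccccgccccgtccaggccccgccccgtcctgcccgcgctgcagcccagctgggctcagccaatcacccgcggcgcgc

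Levels are FPKM, fragments per kilobase of transcript scaled to library size by the authors. A ratio in the text is the log2 of (FPKM + 1) in GW3965 divided by (FPKM + 1) in DMSO, which shrinks the differences of low genes. To be counted a gene needed 1 FPKM or more in GW3965 or DMSO, which 11796 genes and 32 of the 33 members had, Fgf21 being the exception. Steps between low values place the scale of the libraries near 74400000 fragments for GW3965 and 59900000 for DMSO. The LXR target genes used as a check were all at least 1.5-fold higher in GW3965, 7 of 7, with Abca1 at 81.1 FPKM in GW3965 and 14.6 in DMSO. Of the 10 hepatocyte markers 9 were at the minimum, with Apoa1 at 660 FPKM in GW3965 and 598 in DMSO. Tat stayed under it at 0.447 in GW3965 and 0.962 in DMSO, and Cps1 was as low as 2.10 in GW3965 and 1.497 in DMSO.

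The members were mostly a little lower in GW3965. Of the 32 at the minimum, 25 had a ratio below 0, against 47.1% of all genes. Their median ratio was -0.16, against 0.01 over all 11796 genes. Vnn1 and Cpt1a were at least 1.5-fold lower, 2 of 32, against 1.33% of all genes, and 0 of 32 were at least 1.5-fold higher, against 1.02%. At a size of 1.2-fold, a threshold chosen after the data were seen, 9 of 32 were lower, against 7.71% of all genes, and 1 was higher, against 6.09%. Among genes of at least 5 FPKM, 23 of 24 members had a ratio below 0, against 43.5% of all such genes. In bulk RNA, fewer cells of a type and less RNA per cell cannot be told apart.

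Markers of cell types also differed between the libraries. The summed FPKM of the 10 hepatocyte markers was 3296 in GW3965 and 3749 in DMSO, with 4 of the 9 at the minimum below 0, 5 above 0 and a median ratio of 0.03. The difference in the sum came from Fgb, a fibrinogen chain, without which the other 9 markers summed to 1296 in GW3965 and 1291 in DMSO. That near-equal sum covers opposite differences, with Serpina1a at -0.46 and Hnf4a at -0.39 in ratio and Apoa1 at 0.14. Of the 9 at the minimum, 3 were at least 1.2-fold lower, against 7.71% of all genes, and 1 was at least 1.2-fold higher, against 6.09%. The 6 endothelial markers were all above 0 in ratio, with a sum of 151 in GW3965 and 126 in DMSO, as were 6 of the 7 stellate and fibroblast markers at the minimum, with a sum over the list of 30.8 in GW3965 and 25.3 in DMSO. The summed macrophage markers stood at 210 in GW3965 and 206 in DMSO, with 4 of 6 below 0. Over all genes at the minimum, 47.1% were below 0 in ratio. No defining marker of these 4 types was at 0 in both libraries. The part of these shifts in the members' ratios was not tested.

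**Figure D1:**
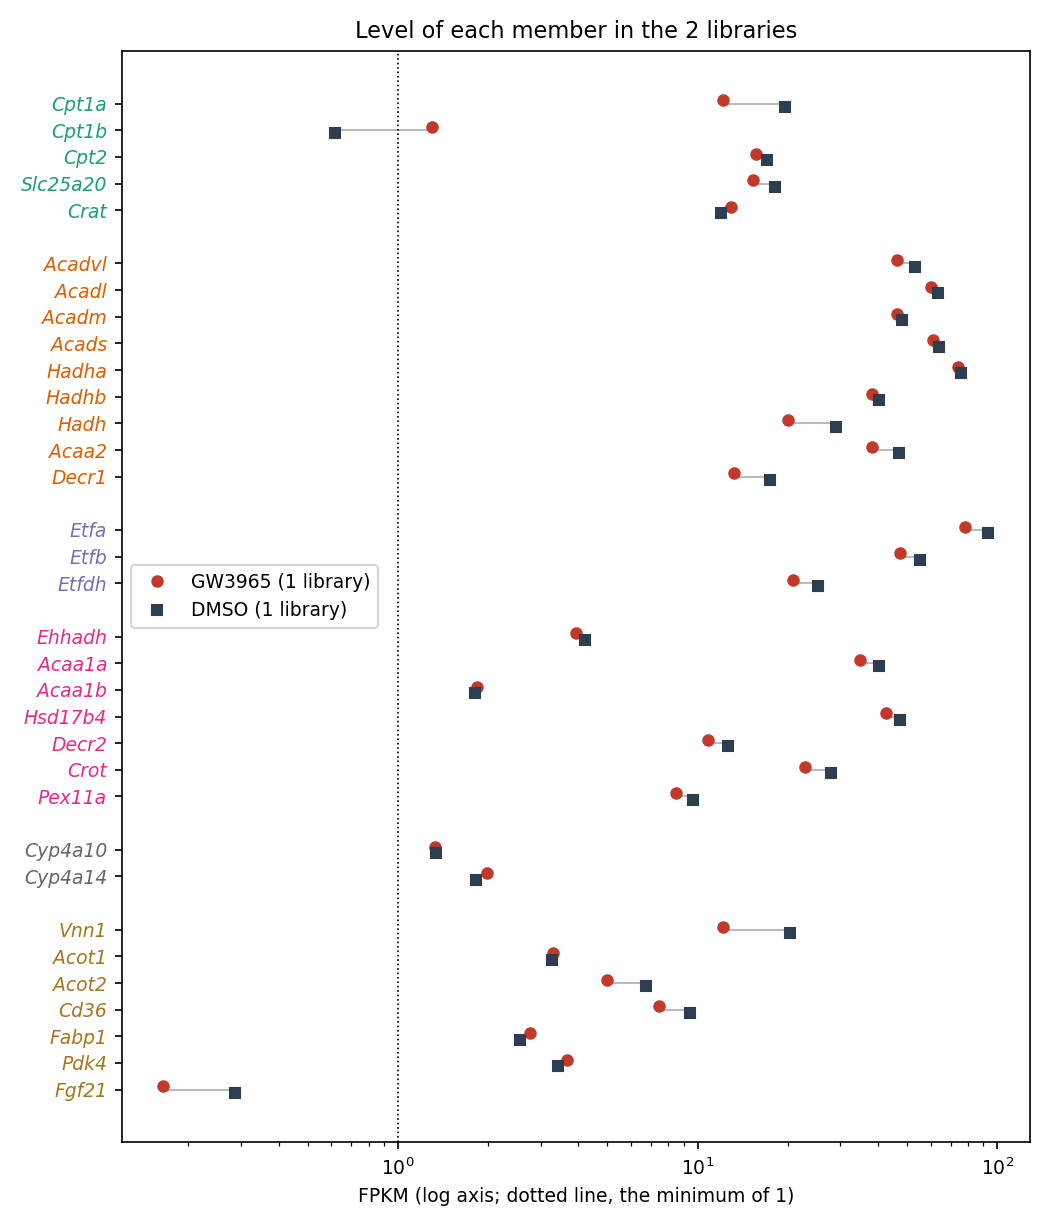
FPKM (log axis) of each of the 33 members in the GW3965 library (circles) and the DMSO library (squares), with names coloured by step in the order carnitine shuttle, mitochondrial beta-oxidation, electron transfer, peroxisomal, microsomal and other targets. Most circles lie left of their squares by a short distance, and Cpt1a, Hadh and Vnn1 show the widest gaps to the left among genes above 10 FPKM.

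The carnitine shuttle holds the transferases and the carrier that move acyl groups into mitochondria. Cpt1a, the liver form of the outer-membrane transferase that limits entry (ENSMUSG00000024900, chr19:3323301-3385732, mm9), had 12.2 FPKM in GW3965 and 19.6 in DMSO, a ratio of -0.65. Only 131 of the 11796 genes had a lower ratio, which is 1.11%. Without the pseudocount its log2 ratio was -0.69, with a 95% interval from counting of -0.84 to -0.53, based on about 597 reads in GW3965 and 774 in DMSO at its shortest coding transcript. Such intervals cover counting error only and leave out any difference between cultures.

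The next proteins of the shuttle differed less. Cpt2, the inner-membrane transferase, had 15.7 FPKM in GW3965 and 17.0 in DMSO (-0.11). Slc25a20, the carrier that exchanges acylcarnitine for carnitine, had 15.3 in GW3965 and 18.1 in DMSO (-0.23). Crat, which makes acetylcarnitine, was above 0, at 12.9 in GW3965 and 11.996 in DMSO (0.10). The counting intervals of Cpt2 and Crat held 0 and that of Slc25a20 did not. Reads were estimated at the shortest coding transcript, of 387 bases for Cpt2, 324 for Crat and 1783 for Slc25a20. A longer transcript gives more reads and a narrower interval, so this contrast is not one between the genes.

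Cpt1b, the muscle form of the outer transferase, was the only member at least 1.2-fold higher, at 1.30 FPKM in GW3965 and 0.618 in DMSO (0.50). Without the pseudocount this was a 2.10-fold difference on about 61 and 23 reads in GW3965 and DMSO, with a counting interval of the log2 ratio of 0.38 to 1.85. In GENCODE M21, 81.4% of its exon bases lie in Gm44502, a gene on the same strand, so its reads cannot be placed with certainty. The authors' deposited table gives Cpt1b p = 0.541, and the standard error derived from its score was 1.75 on the log2 scale. Of 5 muscle markers, Ckm, Myh4, Myh7 and Tnnt3 were at 0 FPKM in both libraries, and Acta1 was at 0.307 in GW3965 and 0.491 in DMSO. Chkb, the choline kinase gene next to Cpt1b, had 27.5 FPKM in GW3965 and 27.3 in DMSO.

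All 9 enzymes of the mitochondrial cycle had ratios below 0, against 47.1% of all genes. Their ratios ran from -0.52 to -0.04, with a median of -0.08. The acyl-CoA dehydrogenases, which open each turn, stood close together. Acadvl, for very long chains, had 46.4 FPKM in GW3965 and 53.1 in DMSO (-0.19). Acadl, for long chains, had 60.0 and 63.4 FPKM in GW3965 and DMSO (-0.08), Acadm, for medium chains, had 46.5 and 48.0 (-0.05), and Acads, for short chains, had 61.2 and 63.9 (-0.06). Acadvl thus lay lowest of the 4. Its locus overlaps Dvl2 on the opposite strand over 42.9% of its exon bases, and the strand setting is not given in the sources used here. Dvl2 itself was at 5.24 FPKM in GW3965 and 5.64 in DMSO.

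The later steps split. Hadha and Hadhb encode the α and β chains of the trifunctional protein, which carries long chains through hydration, dehydrogenation and thiolysis. Hadha had 73.8 FPKM in GW3965 and 75.9 in DMSO (-0.04), and Hadhb had 38.2 in GW3965 and 40.4 in DMSO (-0.08). Of the words of Hadhb 19.9% occur in Gm13910, which was at 0.330 in GW3965 and 0.423 in DMSO. Hadh, Acaa2 and Decr1 lay lower than both. Hadh, the matrix 3-hydroxyacyl-CoA dehydrogenase (ENSMUSG00000027984, chr3:130936337-130975019, mm9), had 19.99 FPKM in GW3965 and 29.1 in DMSO (-0.52), a ratio below that of all but 214 of the 11796 genes. Its counting interval, without the pseudocount, was -0.62 to -0.47. Acaa2, the matrix thiolase, had 38.3 in GW3965 and 47.0 in DMSO (-0.29). Decr1, the dienoyl-CoA reductase that lets unsaturated chains enter the cycle, had 13.2 in GW3965 and 17.5 in DMSO (-0.37).

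The 3 genes that carry electrons away from the dehydrogenases were lower by nearly the same amount. Etfa, the α chain of the electron transfer flavoprotein, had the highest level of all members at 78.1 FPKM in GW3965 and 93.5 in DMSO (-0.26). Etfb, the β chain, had 47.4 in GW3965 and 55.2 in DMSO (-0.21). Its reads are also uncertain, since 53.0% of its exon bases lie in Gm45233 on the same strand. Etfdh, the membrane oxidoreductase that passes the electrons to ubiquinone, had 20.9 in GW3965 and 25.3 in DMSO (-0.26). Summed over the 3 genes, the GW3965 library held 84.1% of the DMSO level, against 90.7% for the 9 genes of the cycle.

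**Figure D2:**
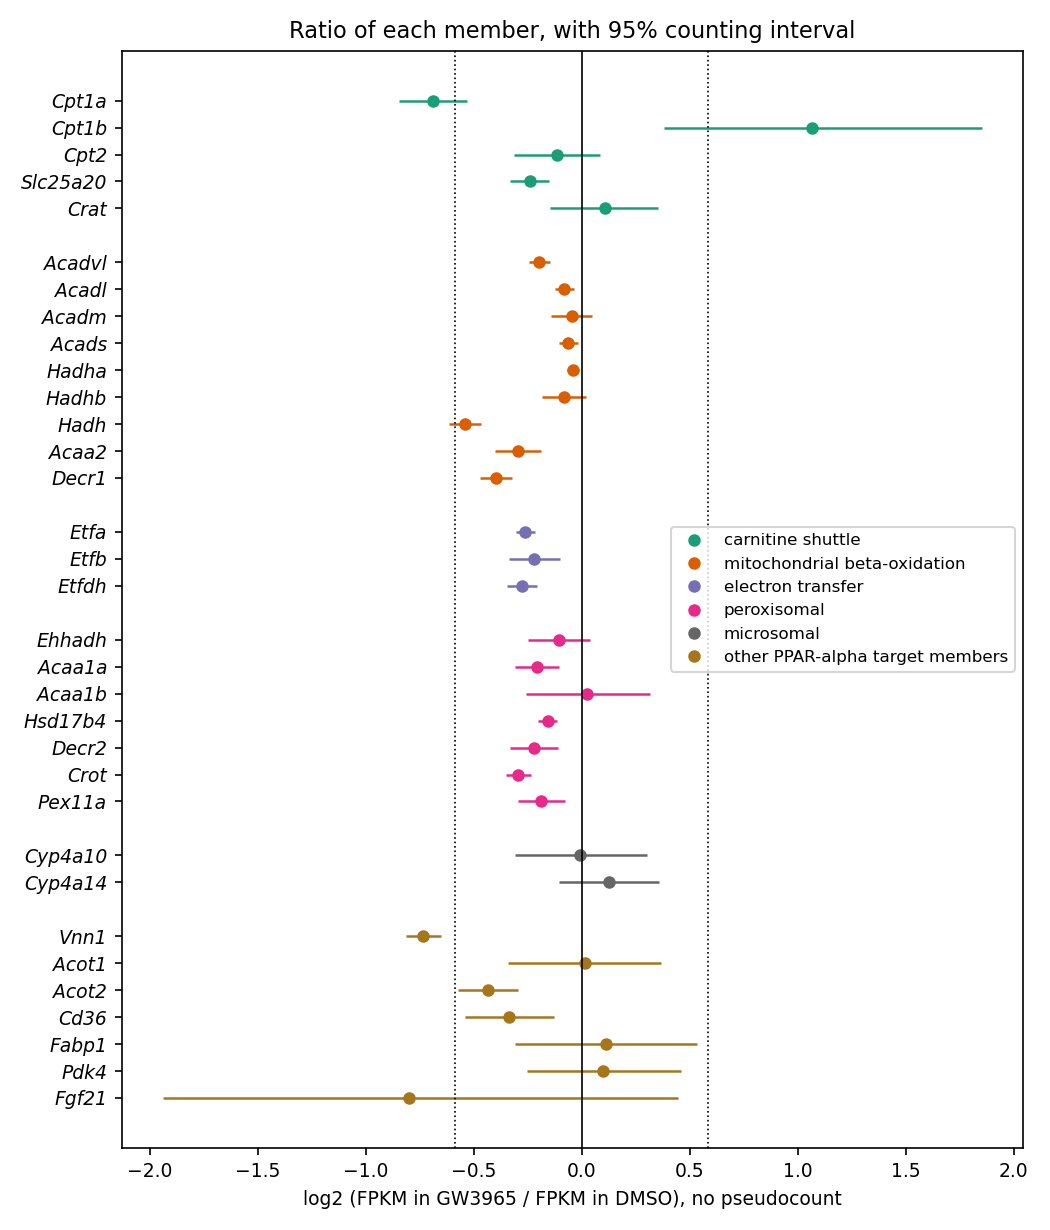
Log2 ratio of FPKM in GW3965 over DMSO without a pseudocount (horizontal axis) for each of the 33 members, coloured by step. Bars are 95% intervals from counting alone, dotted lines mark 1.5-fold, and the interval lies below 0 for 20 members and above 0 for 1, Cpt1b. The same share over all genes was not computed, so these counts do not set the members apart. At this depth even the small difference of Hadha (-0.04) has an interval below 0.

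Of the 7 peroxisomal members 6 were lower, against 47.1% of all genes, and the 7 had a median ratio of -0.17. Crot, which hands shortened chains to carnitine for export, had 22.8 FPKM in GW3965 and 28.0 in DMSO (-0.28). Hsd17b4, the bifunctional enzyme that also serves branched chains, had 42.5 in GW3965 and 47.4 in DMSO (-0.15), and its relative Ehhadh, a PPARα target, had 3.92 in GW3965 and 4.22 in DMSO (-0.08). The thiolase Acaa1a had 34.8 in GW3965 and 40.2 in DMSO (-0.20). Its close copy Acaa1b was low, at 1.84 in GW3965 and 1.81 in DMSO (0.02), and 43.8% of the 25-base words of its transcripts also occur in those of Acaa1a, so reads can be shared. Decr2, the peroxisomal dienoyl-CoA reductase, had 10.9 in GW3965 and 12.7 in DMSO (-0.20), and Pex11a, which acts in peroxisome division, had 8.51 in GW3965 and 9.69 in DMSO (-0.17). No peroxisomal member was 1.5-fold lower, and Crot alone was 1.2-fold lower.

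The microsomal ω-hydroxylases, which are among the most inducible PPARα targets in mouse liver, were at low levels in both libraries. Cyp4a10 had 1.33 FPKM in GW3965 and 1.34 in DMSO (-0.01), and Cyp4a14 had 1.99 in GW3965 and 1.82 in DMSO (0.08). Both counting intervals held 0. For Cyp4a10, 41.6% of the words also occur in Cyp4a32, which was at 0.176 in GW3965 and 0.150 in DMSO.

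The remaining PPARα targets divided into those that were lower and those near 0. Vnn1, the pantetheinase of the cell surface (ENSMUSG00000037440, chr10:23614494-23625149, mm9), had the lowest ratio of all members, with 12.2 FPKM in GW3965 and 20.3 in DMSO (-0.69). Only 110 of the 11796 genes had a lower ratio. Its counting interval, without the pseudocount, was -0.81 to -0.65. Acot2, a mitochondrial acyl-CoA thioesterase, had 4.99 in GW3965 and 6.75 in DMSO (-0.37), and its cytosolic relative Acot1 had 3.30 in GW3965 and 3.27 in DMSO (0.01). Since 32.6% of the words of Acot2 also occur in Acot1, the split of reads between them is uncertain. Cd36, a fatty acid transporter that is also a reported LXR target, had 7.45 in GW3965 and 9.41 in DMSO (-0.30).

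For the other 3 targets no difference was detectable beyond counting error. Fabp1, the cytosolic fatty acid binding protein whose promoter holds the relaxed repeat, was low in these cells at 2.76 FPKM in GW3965 and 2.55 in DMSO (0.08). Pdk4, the kinase that shuts off pyruvate dehydrogenase, had 3.66 in GW3965 and 3.42 in DMSO (0.08). Fgf21, the fasting hormone of liver, was under the minimum at 0.164 in GW3965 and 0.286 in DMSO, on about 12 reads in GW3965 and 16 in DMSO. The counting interval of its log2 ratio without the pseudocount ran from -1.94 to 0.44.

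**Figure D3:**
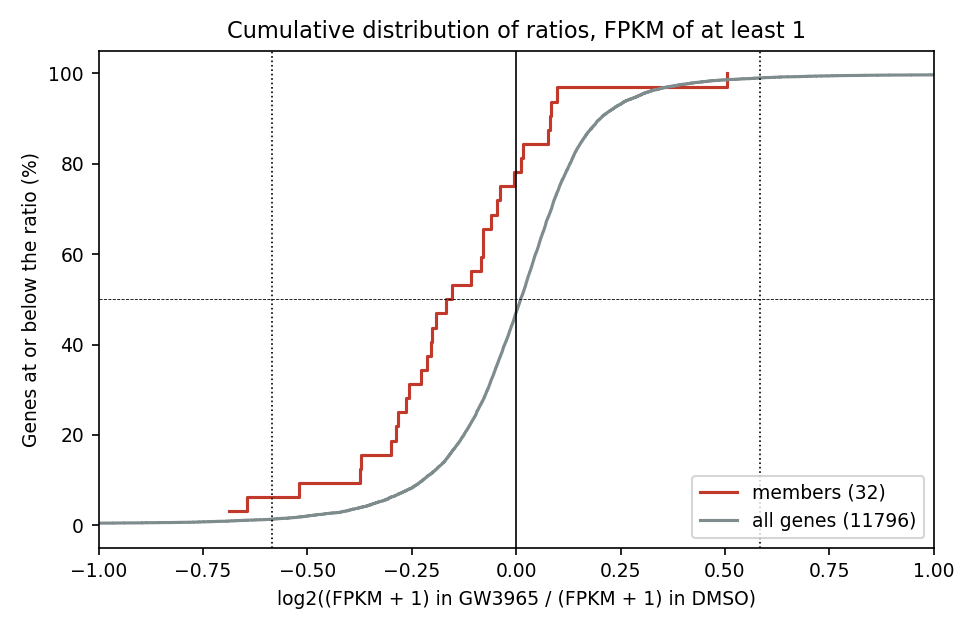
Share of genes (vertical axis, percent) at or below each log2 ratio of FPKM + 1 between GW3965 and DMSO for the 32 members at the minimum and for all 11796 genes. The curve of the members lies to the left over most of its length, with medians of -0.16 for members and 0.01 for all genes, and dotted lines mark 1.5-fold.

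None of the 33 members was called in the authors' deposited table, where 0.35% of tested genes at the minimum were called. With 1 library per group that test speaks of the libraries sequenced and cannot speak of the treatment. The authors' deposited table gives Cpt1a p = 0.000176 and Vnn1 p = 0.000179, both with q = 0.0574, just above the highest q of a called gene, 0.0470. For Hadh the authors' deposited table gives p = 0.00494 (q = 0.518), and for Decr1 p = 0.0413. These 4 were the members with p of at most 0.05 in the authors' deposited table, all lower in GW3965, against 1.72% of tested genes that were lower at that p. The standard error of the log2 ratio, derived as that ratio without pseudocount over the score in the authors' deposited table, was 0.18 for Cpt1a and 0.20 for Vnn1, and its median over members was 0.23.

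Related genes were described from lists chosen by role, with earlier results of these data known. Of 14 further enzymes listed here as mitochondrial, 9 were below 0, against 47.1% of all genes. Of these 14, 0 passed 1.5-fold, and their median was -0.04. Where each enzyme acts in the cell was not checked, so the list does not separate mitochondria from peroxisomes. Acad11, an acyl-CoA dehydrogenase, stood at -0.39, the enoyl-CoA isomerases Eci2 and Eci1 at -0.26 and -0.21, and Acsl1, an acyl-CoA synthetase, at 0.19. Echs1, the short-chain enoyl-CoA hydratase, had 53.2 FPKM in GW3965 and 48.1 in DMSO (0.14), and Hsd17b10, a short-chain dehydrogenase, stood at -0.02. Of 20 further peroxisomal genes at the minimum, 16 were below 0, against 47.1% of all genes, with a median of -0.10. On FPKM + 1, 0 of the 20 passed 1.5-fold, though Abcd2, a low gene, passed it on FPKM alone. Abcd2, a transporter of very long chains, had 0.957 FPKM in GW3965 and 1.83 in DMSO (-0.53), and the hydrolase Ephx2 had 19.0 in GW3965 and 25.3 in DMSO (-0.40). Ech1, an isomerase for dienes, stood at -0.32 and Amacr, the racemase for branched chains, at -0.29.

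Peroxisome biogenesis genes did not share that shift in their median, which was 0.06 over 13 genes. Of the 13, 6 were below 0, against 47.1% of all genes. Pex5, the import receptor, stood at 0.23, Pex13 at -0.19 and Pex14 at 0.16. Of 6 further genes of ω-oxidation at the minimum, 4 were below 0, against the same 47.1%, with a median of -0.04. Aldh3a2, the fatty aldehyde dehydrogenase, had 42.9 FPKM in GW3965 and 54.7 in DMSO (-0.34), while Cyp4f15 stood at 0.34, Cyp4f16 at 0.08 and Cyp4f14 at -0.07.

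Other reported PPARα targets spread most widely. Of 17 at the minimum 2 were at least 1.5-fold lower, against 1.33% of all genes, and 1 higher, against 1.02%. Their median was 0.13. Slc27a2, an acyl-CoA synthetase and transporter, had 9.90 FPKM in GW3965 and 15.7 in DMSO (-0.62). G0s2, an inhibitor of the lipase ATGL, had 16.2 in GW3965 and 8.72 in DMSO (0.82), and Fabp4 had 29.4 in GW3965 and 20.7 in DMSO (0.49). Plin2, a coat protein of lipid droplets, had by far the highest level of these at 852 in GW3965 and 697 in DMSO (0.29). Fabp4 is also a marker of adipocytes, whose 4 listed markers summed to 0.286 in GW3965 and 0.347 in DMSO (Adipoq at 0.0112 in GW3965 and 0 in DMSO), and of endothelial cells, whose markers were higher in GW3965 as given above, and their part in its ratio was not tested.

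Among receptors and their partners 7 of 15 genes at the minimum were below 0, against 47.1% of all genes, with a median of 0.01. Ppara itself was low, at 1.46 FPKM in GW3965 and 1.82 in DMSO (-0.19), and its coactivator Ppargc1a was under the minimum at 0.558 in GW3965 and 0.753 in DMSO. Creb3l3, a liver transcription factor that acts with PPARα, had 3.49 in GW3965 and 5.67 in DMSO (-0.57). Nr1h3, which encodes LXRα, stood at -0.29. Lpin1, a phosphatidate phosphatase and PPARα coactivator, had 15.1 in GW3965 and 7.09 in DMSO (0.99) and was called in the authors' deposited table with q = 6.83e-06. Rxra, the shared partner, had 23.7 in GW3965 and 22.0 in DMSO (0.10).

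Malonyl-CoA blocks the transferase that Cpt1a encodes. Acaca, the carboxylase that makes it for fatty acid synthesis, had 17.4 FPKM in GW3965 and 11.4 in DMSO (0.57), and Acacb, the form at the mitochondrial surface, had 2.89 in GW3965 and 2.11 in DMSO (0.32). Mlycd, the decarboxylase that removes malonyl-CoA, had 10.4 in GW3965 and 12.3 in DMSO (-0.22). None of the 3 passed 1.5-fold on FPKM + 1, but Acaca lay close to that size and passed it on FPKM alone. Their levels are those of RNA only.

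**Figure D4:**
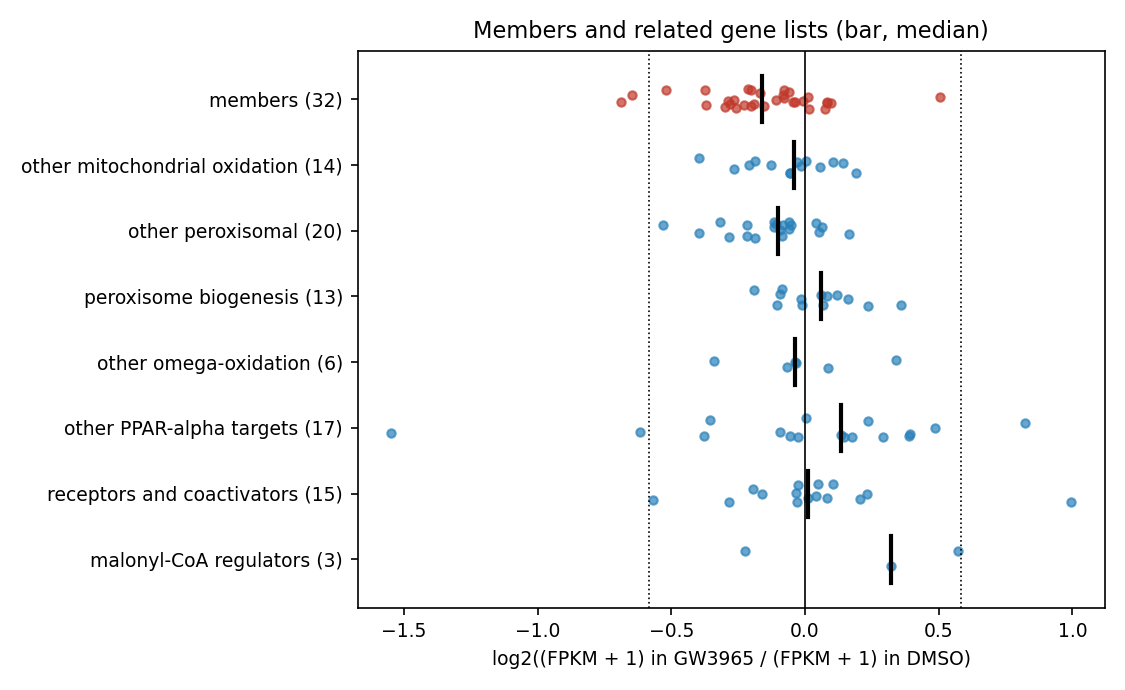
Log2 ratio of FPKM + 1 between GW3965 and DMSO (horizontal axis) for the members and 7 related lists, with the number of genes at the minimum beside each name, 1 point per gene and a bar at the median. The median lies at -0.16 for members, -0.10 for other peroxisomal genes, 0.06 for peroxisome biogenesis and 0.13 for other PPARα targets.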

How the data were processed

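RNA sequencing libraries of cultured hepatocytes, 1 for GW3965 and 1 for DMSO, were prepared from total RNA with Illumina's TruSeq kit, as the labels' protocols state. The submitters' processing notes name Cufflinks 2.0.2, Cuffdiff, TopHat2 2.0.6 and CASAVA, with builds mm9 and NCBIM37. How strand and library scaling were set is not given in the sources used. The deposited levels are FPKM, per the file headers. The deposited table also gives a log2 fold, a p-value and a q-value, and as a score the test statistic, per the file headers. The values of the members show that the sign of this score is opposite to that of the fold.

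The members and lists were chosen with earlier results of these data known. The text accounts for all members, and of other lists names up to 4 genes with the largest ratios in size and those past 1.5-fold; further genes were named after their values were seen, and some genes the rule takes are left out. The 7 genes marked for too many fragments were left out. Depth came from 4407 low genes: the most frequent DMSO to GW3965 ratio was 1.24, 1 read against 1, after which 53.6% of them matched a quotient of integers from 1 to 10 to within 0.1%, and 1.91% did when shifted by 3%. The absolute scale rests on 53 genes with 1 transcript. Reads per member were estimated at the shortest coding transcript in GENCODE M21, with exact 95% binomial (Clopper-Pearson) intervals. Shared sequence is the share of 25-base words on either strand. Locus starts had 1 added, because the GENCODE gene length was matched in 58.5% of 19846 single-gene loci if starts count from 0, and in 1.53% if from 1. The size rule and the intervals were tested on simulated data. Alternatives were other pseudocounts, minimums, thresholds and scalings, genes the authors tested, and leaving out members that share sequence. Software was matplotlib 3.10.9, scipy 1.17.1, pandas 2.3.3, numpy 2.4.6 and Python 3.11.15.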

Additional observations from a re-analysis of the deposited data

How the results depend on the processing

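The median of the members stayed below 0 under every alternative run, between -0.209 at a minimum FPKM of 5 and -0.132 with a pseudocount of 5, and was -0.169 without the 9 members that share at least 20% of their words with other genes. The count of members 1.5-fold lower was 0 with a pseudocount of 5 and 0 at 2-fold, and 9 at 1.2-fold, a threshold added after the data were seen. The count of members higher was 1, Cpt1b, with a pseudocount of 0.1 and 1 at 1.2-fold. The median of the other PPARα target members was -0.372 at a minimum FPKM of 5. Among related lists, other PPARα targets turned to -0.0128 without a minimum, receptors to -0.0281 without a minimum and -0.000925 after centring, and malonyl-CoA regulators stood at 0.435 and 0.15 with pseudocounts of 0.1 and 5 and at 0.173 at a minimum of 5. Genes of these lists past the threshold numbered 4 lower and 4 higher with a pseudocount of 0.1, 1 lower with 5, and 1 lower and 0 higher at 2-fold. The share over all genes moved too, with 2.71% lower and 1.64% higher at a pseudocount of 0.1. It was 0.475% lower and 0.475% higher at a pseudocount of 5, and 0.466% lower and 0.331% higher at 2-fold. At 1.2-fold it was 7.71% lower and 6.09% higher. Pseudocounts and minimums act on low genes by construction. No paired analysis was possible because there was only 1 library on each side. Depth limits Fgf21, Cpt1b and the Cyp4a genes.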
